A study of Mus musculus with 17 samples.

Results

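The 9 genes Irf7, Irf9, Ifit1, Ifit3, Oasl2, Bst2, Ifi27, Isg15 and Usp18, which take part in or respond to type I interferon signalling, were followed in the prefrontal cortex of WT mice, PS19 mice and CgA-KO/PS19 mice. They were chosen by name, as known interferon response genes, and make up 9 of the 56953 rows of the count table. All 9 had enough counts to be among the 23062 genes tested. Bulk RNA-seq was made from 5 WT, 6 PS19 and 6 CgA-KO/PS19 libraries of mice aged 8 months on a B6C3F1/J background, and the question was whether loss of CgA (chromogranin A, a neuroendocrine secretory protein) alters the cortical transcriptome of a Tauopathy model. PS19 mice, labelled hTau, carry a transgene for human Tau P301S driven by the Prnp promoter, and were bred as heterozygotes. CgA-KO/PS19 mice, labelled CgA-KO/hTau, carry the same transgene and lack Chga in every tissue from birth. The knockout line began on a mixed 129/SvJ and C57BL/6 background before it was backcrossed, and no group with the knockout and without the transgene was among the samples analysed here.

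Type I interferons are secreted proteins that bind the receptor IFNAR1/IFNAR2 on the same or neighbouring cells. The receptor kinases JAK1 and TYK2 then phosphorylate signal transducers of the STAT family, which join IRF9 to form a factor that binds interferon-stimulated response elements in target promoters. In the brain, microglia, astrocytes and endothelial cells all respond to these cytokines, and an interferon response has been described in ageing and in several models of neurodegeneration.

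The promoters of the genes are shown because the response element is what links them. The letters searched were GAAANNGAAA, the core of that element, on both strands, in the 300 bases from 250 before to 50 after the RefSeq start on GRCm38.p6. These letters were present in 3.44% of 32851 promoter entries. Of the members, 7 had a promoter entry, and 4 of these held at least 1 match, namely Ifit1, Ifit3, Bst2 and Isg15. Irf7, Irf9 and Oasl2 held none, which says only that these letters are not in these windows, and Usp18 and Ifi27 had no entry. Matches are in capitals in the sequences, and each sequence runs 5′ to 3′ on the strand of its gene. Ifit3 lies at chr19:34583279-34583578 on the plus strand, Ifit1 at chr19:34640639-34640938 on the plus strand, Isg15 at chr4:156200769-156201068 on the minus strand and Oasl2 at chr5:114896684-114896983 on the plus strand. The first 3 hold matches and the last, the promoter of a gene that passed the test, holds none.
Ifit3: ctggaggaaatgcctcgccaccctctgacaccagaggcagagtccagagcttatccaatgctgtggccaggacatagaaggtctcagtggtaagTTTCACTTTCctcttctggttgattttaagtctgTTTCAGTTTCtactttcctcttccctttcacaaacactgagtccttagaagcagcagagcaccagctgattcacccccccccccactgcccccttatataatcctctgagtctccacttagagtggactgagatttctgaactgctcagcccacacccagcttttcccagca
Ifit1: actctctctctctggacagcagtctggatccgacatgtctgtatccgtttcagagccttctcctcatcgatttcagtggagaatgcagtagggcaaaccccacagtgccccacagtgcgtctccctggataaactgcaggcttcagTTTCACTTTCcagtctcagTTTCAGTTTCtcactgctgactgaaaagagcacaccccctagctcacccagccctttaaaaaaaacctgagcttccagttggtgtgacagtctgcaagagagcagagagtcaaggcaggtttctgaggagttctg
Isg15: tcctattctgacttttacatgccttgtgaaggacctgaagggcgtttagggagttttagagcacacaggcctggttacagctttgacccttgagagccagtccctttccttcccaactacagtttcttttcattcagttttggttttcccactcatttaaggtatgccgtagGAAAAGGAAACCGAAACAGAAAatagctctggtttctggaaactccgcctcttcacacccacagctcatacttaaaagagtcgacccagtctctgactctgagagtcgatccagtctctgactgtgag
Oasl2: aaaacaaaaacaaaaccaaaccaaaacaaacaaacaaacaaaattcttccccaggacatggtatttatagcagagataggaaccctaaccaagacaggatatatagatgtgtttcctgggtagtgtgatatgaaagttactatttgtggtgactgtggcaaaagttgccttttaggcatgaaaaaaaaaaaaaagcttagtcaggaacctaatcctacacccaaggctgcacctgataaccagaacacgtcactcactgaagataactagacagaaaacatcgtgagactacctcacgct
Ifit3 and Ifit1 each held 2 matches, and both genes carried the same pair of letters, TTTCACTTTC followed by TTTCAGTTTC, on the opposite strand. The matches began 156 and 122 bases before the start of Ifit3 and 104 and 85 bases before the start of Ifit1. In Isg15, 3 overlapping matches began 78, 72 and 66 bases before the start. Of the other interferon pathway genes with a promoter entry, 42 of 95 (44.2%) held a match, and 11 of the 42 were interferon genes themselves.

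The total count was 8838334 to 227651681 per library, lowest in WT replicate 4. Low counts peaked at multiples of 3, that is, a fragment was worth about 3 counts, and a count of 0 therefore allows up to 9 counts, which was 1.03 CPM in WT replicate 4 and 0.0396 to 0.260 CPM in the other libraries. CPM is the count scaled to a common TMM library size, and intervals and limits of this kind cover counting error only. Chga, the targeted gene, averaged 163 ± 11.9 CPM in WT and 168 ± 6.68 CPM in PS19 (SD, n = 5 and 6), and had 0 counts in all 6 CgA-KO/PS19 libraries. Reads assigned to Prnp, whose promoter drives the transgene, averaged 833 ± 71.0 CPM in WT, 2119 ± 174 CPM in PS19 and 1561 ± 321 CPM in CgA-KO/PS19. Ddx3y, a Y-linked gene, exceeded 1 CPM in replicates 1 to 3 of all genotypes, and its highest value elsewhere was 0.0582 CPM. Mitochondrial genes took 13.8% to 18.2% of counts in CgA-KO/PS19 replicates 1 to 3 and 2.56% to 10.9% in the other libraries. Some libraries were near-identical. Over 3761 well-measured genes, PS19 replicates 4, 5 and 6 differed from each other by 1.95 to 2.32 times the counting error. CgA-KO/PS19 replicates 1 and 3 differed by 2.73 times, and other pairs within a genotype by 4.13 to 14.6 times. Each library was counted as 1 replicate, and whether the near-identical ones are independent was not tested. Markers of cortical projection neurons were present in every library, at summed levels of 950 to 2339 CPM. The 7 markers of striatal neurons summed to 864 to 2224 CPM in WT, 115 to 143 CPM in PS19 and 153 to 1350 CPM in CgA-KO/PS19, and all 7 were lower in PS19 than in WT with an FDR under 0.05, so that the dissected tissue and the genotype cannot be told apart by these labels.

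The 9 genes were expressed at low levels. Per kilobase of exon, the mean level over the 17 libraries was highest for Ifi27, at 6.81 CPM per kb, followed by Ifit3 at 4.09. Bst2 at 1.203, Irf9 at 0.973, Isg15 at 0.899 and Ifit1 at 0.873 CPM per kb followed close together, and Oasl2 stood at 0.401. Irf7 at 0.212 and Usp18 at 0.202 CPM per kb were lowest. In deposited counts, Usp18 ranged from 0 in WT replicate 4 to 162 in CgA-KO/PS19 replicate 3, and Ifi27 from 34 to 2364. The precision of Usp18, Isg15, Irf7 and Bst2 was therefore limited by few fragments, above all in WT replicate 4, where Bst2 and Usp18 had 0 counts and the limit of 1.03 CPM that a 0 allows reached the levels of the other WT libraries.

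**Figure D1:**
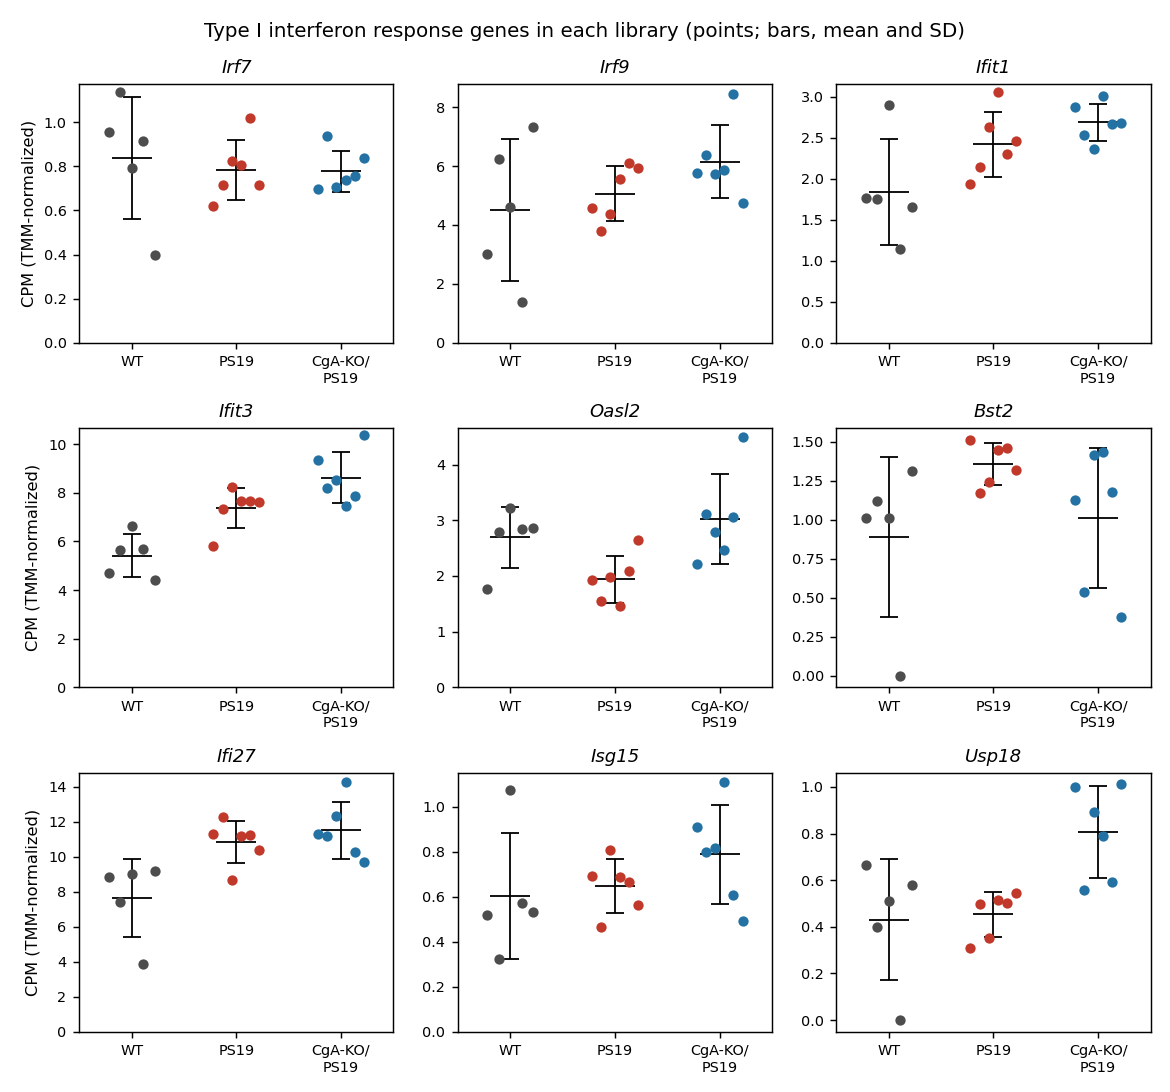
Level of each of the 9 genes in each library, in CPM (TMM-normalized), by genotype, with 5 WT, 6 PS19 and 6 CgA-KO/PS19 libraries as points and the mean and SD as bars. Ifit3 in CgA-KO/PS19 lay at 7.46 CPM or more in every library against at most 6.65 CPM in WT, while Irf7 overlapped among all 3 genotypes.

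Genotypes were compared by edgeR's quasi-likelihood test in 1 fit over all 17 libraries, with Benjamini-Hochberg adjustment (FDR) over all 23062 genes tested, and a gene was called when its FDR was under 0.05. Few of the 9 genes were called in any comparison. In PS19 against WT, 0 of 9 were called, beside 5.9% of all genes tested (1.95% higher and 3.95% lower), although 3 of 9 had an unadjusted p under 0.05. DESeq2 and limma voom each called 2 there, Ifit3 and Ifi27, beside 5.99% and 17.2% of all genes. DESeq2's share is of 39993 genes with any count, including any that its own filter left without an FDR. It can thus be lower than a share of the genes DESeq2 tested. Between CgA-KO/PS19 and PS19, 1 of 9 was called, Oasl2, which was higher, beside 9.72% of all genes (5.5% higher and 4.22% lower). Between CgA-KO/PS19 and WT, 1 of 9 was called, Ifit3, which was higher, beside 6.46% of all genes (3.56% higher and 2.89% lower). With 9 genes, 1 call is 11.1%, the smallest share above 0 that the list can give.

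The genes whose libraries did not overlap between genotypes were also few. None of the 9 was free of overlap between PS19 and WT, where 9.52% of all genes were. Between CgA-KO/PS19 and PS19 this held for Usp18, where 6.63% of all genes did not overlap. Between CgA-KO/PS19 and WT it held for Ifit3 and Ifi27, beside 3.6% of all genes. The log2 fold change was positive for 6 of 9 genes in PS19 against WT, 7 of 9 in CgA-KO/PS19 against PS19 and 8 of 9 in CgA-KO/PS19 against WT, where 51.2%, 52.7% and 51.1% of all genes were positive. The median log2 fold change of the 9 genes was 0.12, 0.22 and 0.41 in the same order, and that of all genes tested was 0.0097, 0.026 and 0.0090. The comparisons share libraries and are not independent of each other.

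**Figure D2:**
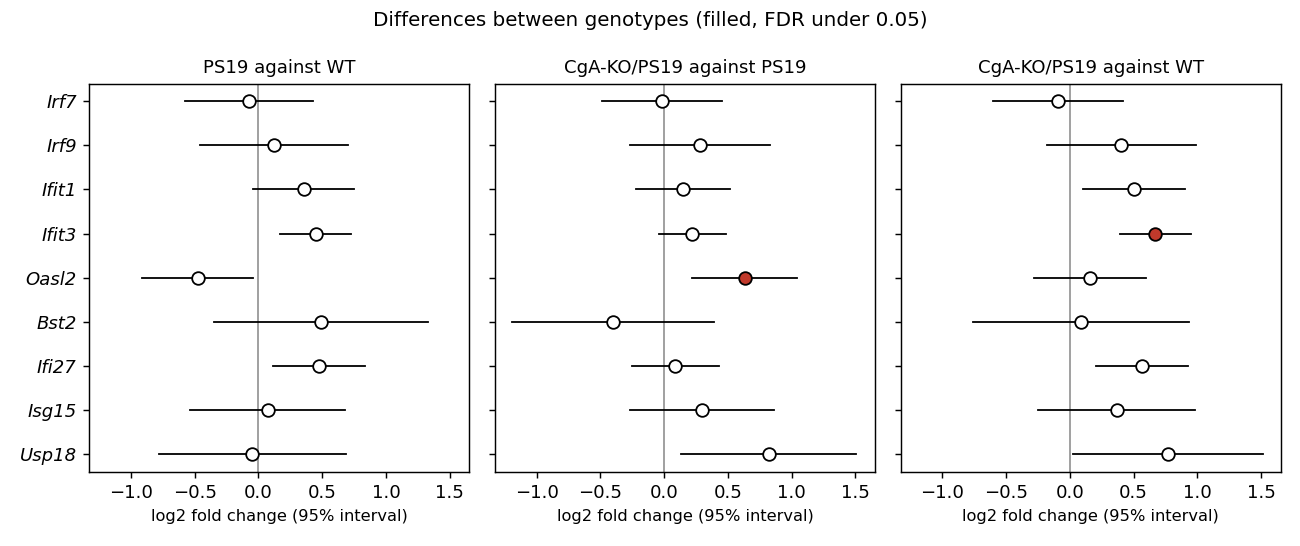
Log2 fold change of each of the 9 genes (point) with its 95% interval (line) from edgeR's quasi-likelihood fit, in each of the 3 comparisons, with filled points for an FDR under 0.05. The filled points are Oasl2 in CgA-KO/PS19 against PS19, at 0.63, and Ifit3 in CgA-KO/PS19 against WT, at 0.67, and the widest intervals are those of Bst2.

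Irf7 and Irf9 are the transcription factors among the genes. Irf7 amplifies interferon production after the first signal. Its level was 0.955, 1.14, 0.791, 0.912 and 0.396 CPM in WT replicates 1 to 5, 0.619 to 1.02 CPM in PS19 (median 0.761) and 0.696 to 0.936 CPM in CgA-KO/PS19 (median 0.747). The genotypes overlapped, and the log2 fold change was -0.074 (95% interval -0.58 to 0.43) in PS19 against WT and -0.018 (-0.49 to 0.45) in CgA-KO/PS19 against PS19. The latter turned positive, to 0.010, with DESeq2's size factors, so Irf7 had no direction here. Irf9, the DNA-binding part of the STAT complex, was at 3.01, 6.24, 4.60, 1.37 and 7.32 CPM in WT, a coefficient of variation of 53.2%. It was 3.81 to 6.10 CPM in PS19 (median 5.08) and 4.74 to 8.44 CPM in CgA-KO/PS19 (median 5.81). For Irf9 the log2 fold change was 0.41 (95% interval -0.18 to 0.99) in CgA-KO/PS19 against WT, with an FDR of 0.434 by the edgeR test. The Irf9 gene overlaps Rnf31 on the same strand, and Irf7 overlaps Phrf1 on the other, so reads of these neighbours may be among their counts.

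Ifit3 and Ifit1 encode proteins with tetratricopeptide repeats that bind viral RNA or each other and are among the most strongly induced interferon targets. Ifit3 (ENSMUSG00000074896) lies on chromosome 19, from 34583531 to 34588731 on the plus strand. It was at 4.69, 5.64, 6.65, 5.70 and 4.40 CPM in WT replicates 1 to 5. It was 5.81 to 8.22 CPM in PS19 (median 7.64) and 7.46 to 10.4 CPM in CgA-KO/PS19 (median 8.36). The CgA-KO/PS19 libraries all lay above those of WT, and PS19 overlapped with both. Ifit3 was thus 1.59-fold higher in CgA-KO/PS19 than in WT, with a log2 fold change of 0.67 (SE 0.13, FDR 0.00716 by the edgeR test). This call held without each of the 17 libraries in turn (FDR 0.00514 to 0.0280), and among replicates 1 to 3 alone (FDR 0.0322). It was lost when only those 2 genotypes were fitted (log2 fold change 0.68, FDR 0.0510) and among replicates 4 to 6 alone (0.79, FDR 0.0990).

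The log2 fold change of Ifit3 in PS19 against WT was 0.45 (SE 0.13, FDR 0.0524 by the edgeR test), just outside the threshold. Without WT replicate 3 its FDR was 0.0290, and it was also called without PS19 replicate 1, CgA-KO/PS19 replicate 4 or CgA-KO/PS19 replicate 6. Against PS19, CgA-KO/PS19 had a log2 fold change of 0.22 (95% interval -0.038 to 0.48, FDR 0.253 by the edgeR test). Ifit1 was at 1.76, 1.75, 2.91, 1.14 and 1.66 CPM in WT, where replicate 3 stood above the rest. It was 1.93 to 3.06 CPM in PS19 (median 2.38) and 2.36 to 3.005 CPM in CgA-KO/PS19 (median 2.68), overlapping with WT through that library. Its log2 fold change in CgA-KO/PS19 against WT was 0.50 (SE 0.19, FDR 0.127 by the edgeR test), and without WT replicate 3 it was 0.74, with an FDR of 0.0216.

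Both genes sit in a cluster of 6 Ifit genes that spans 99.3 kb of chromosome 19 (GRCm38). Described after its values were seen, the cluster was not even. Ifit3b, a near-identical copy of Ifit3, was at 3.73, 4.46, 3.96, 2.51 and 3.25 CPM in WT, 4.32 to 6.21 CPM in PS19 and 5.41 to 8.26 CPM in CgA-KO/PS19. It was higher in PS19 than in WT (log2 fold change 0.55, SE 0.15, FDR 0.0433) and in CgA-KO/PS19 than in WT (0.95, SE 0.16, FDR 0.00237). The Ifit3b call in PS19 against WT was lost without any 1 of PS19 replicates 2 to 6. It was also lost without WT replicate 1, 3, 4 or 5 or CgA-KO/PS19 replicate 5. Since reads of the copies can be split between them, the separate values of Ifit3 and Ifit3b are uncertain. Ifit2 was at 10.3 to 13.2 CPM in WT and 15.4 to 18.9 CPM in PS19, without overlap, with an FDR of 0.0919. In CgA-KO/PS19 it was 10.8 CPM in replicate 3, 10.97 CPM in replicate 1 and 15.9 to 21.0 CPM in the other 4 libraries. Ifit1bl1 was also lowest in those libraries, at 2.66 CPM in replicate 1 and 2.36 CPM in replicate 3 against 5.63 to 6.12 CPM in the other CgA-KO/PS19 libraries, and 3.59 to 5.36 CPM in WT. Ifit1bl2, at 0.624 and 0.777 CPM in replicates 1 and 3 and 1.78 to 2.85 CPM in the others, was low in the same libraries, while Ifit3 and Ifit3b were not low in either library. CgA-KO/PS19 replicates 1 and 3 were closer to each other over all well-measured genes than the other libraries of that genotype, and the part this plays was not tested.

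**Figure D3:**
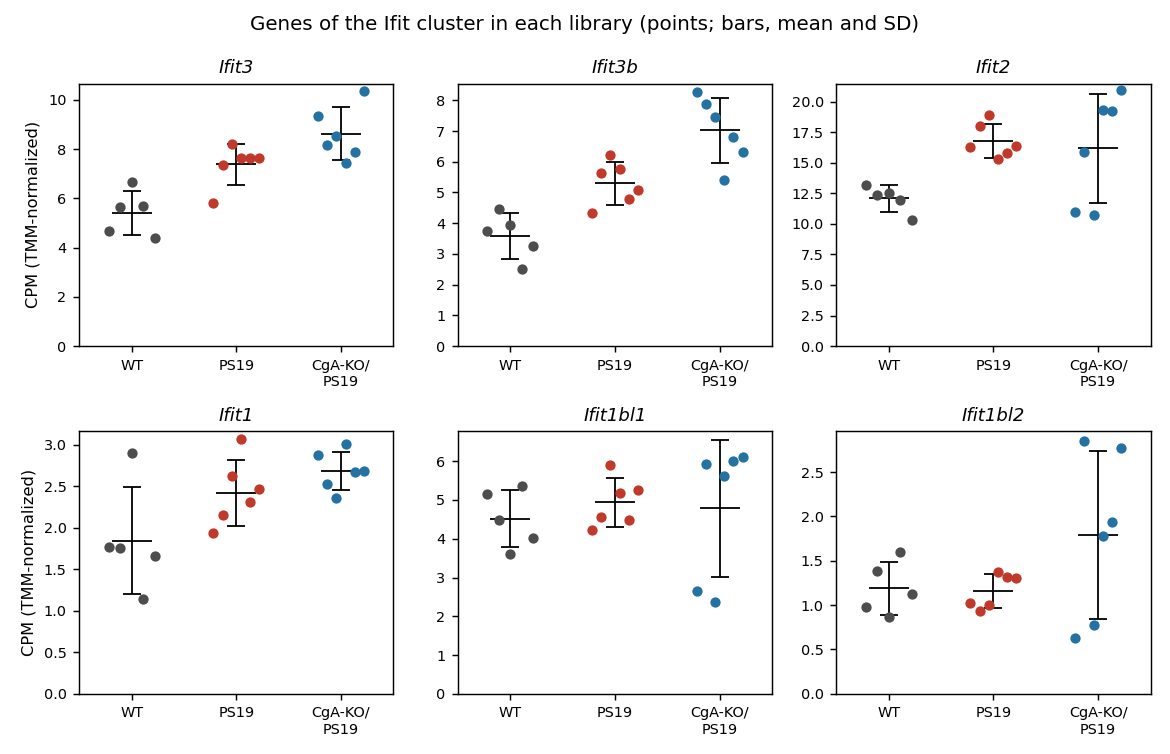
Level of the 6 genes of the Ifit cluster in each library, in CPM (TMM-normalized), by genotype, with the mean and SD as bars. Ifit3b is at 5.41 CPM or more in each CgA-KO/PS19 library and at most 4.46 CPM in WT, and Ifit2, Ifit1bl1 and Ifit1bl2 each have 2 low CgA-KO/PS19 libraries, replicates 1 and 3.

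Oasl2, Bst2 and Ifi27 belong to other arms of the antiviral program. Oasl2, a relative of the oligoadenylate synthetases that sense double-stranded RNA, lies on chromosome 5, from 114896936 to 114912234 on the plus strand. It was at 1.76, 2.80, 3.22, 2.85 and 2.87 CPM in WT, with replicate 1 apart from the rest. It was 1.45 to 2.65 CPM in PS19 (median 1.95) and 2.21 to 4.50 CPM in CgA-KO/PS19 (median 2.93). The 2 groups overlapped through PS19 replicate 6 and CgA-KO/PS19 replicates 1 and 4. The mean Oasl2 level of CgA-KO/PS19 was 1.55-fold that of PS19 (log2 fold change 0.63, SE 0.20, FDR 0.0489 by the edgeR test). Its log2 fold change in PS19 against WT was -0.48 (95% interval -0.91 to -0.042, FDR 0.193), and in CgA-KO/PS19 against WT it was 0.16 (-0.28 to 0.59).

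The Oasl2 call stood close to the threshold. It held without 5 of the 17 libraries in turn, WT replicates 1 and 4, PS19 replicate 6 and CgA-KO/PS19 replicates 1 and 4, and was lost without each of the other 12 (FDR over all 17 fits 0.0293 to 0.105). Its log2 fold change stayed between 0.49 and 0.75 in these fits. It was 0.59 (FDR 0.0975) among replicates 1 to 3 and 0.67 (FDR 0.370) among replicates 4 to 6. With the summed level of microglia markers as a covariate it was 0.49 (FDR 0.0814), with that of striatal neuron markers 0.73 (FDR 0.0884) and with the level of Ddx3y 0.63 (FDR 0.0501). Oasl2 in CgA-KO/PS19 replicate 1, which had the highest striatal marker sum of its genotype, was the lowest of the 6 at 2.21 CPM.

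Bst2 encodes tetherin, a membrane protein that holds budding viruses at the cell surface. It was at 1.01, 1.12, 1.01, 0 and 1.31 CPM in WT, where the 0 is that of the shallowest library. It was 1.17 to 1.51 CPM in PS19 (median 1.38) and 0.375 to 1.43 CPM in CgA-KO/PS19 (median 1.15), where replicates 2 and 6 stood below the rest, at 0.538 and 0.375 CPM. The log2 fold change of Bst2 was -0.40 (95% interval -1.19 to 0.39) in CgA-KO/PS19 against PS19, an interval that spans both directions. Ifi27, a small mitochondrial and nuclear envelope protein induced by interferon alpha, was at 8.82, 7.42, 9.01, 3.88 and 9.15 CPM in WT. It was 8.66 to 12.3 CPM in PS19 (median 11.2) and 9.70 to 14.3 CPM in CgA-KO/PS19 (median 11.2), so that the CgA-KO/PS19 libraries all lay above those of WT. Its log2 fold change in that comparison was 0.57 (SE 0.17) with an FDR of 0.0572, and it was called by DESeq2 (FDR 0.00804) and limma voom (FDR 0.0421). Without WT replicate 4, whose 3.88 CPM was the lowest, its log2 fold change was 0.42 and its FDR 0.0437. It was also called without CgA-KO/PS19 replicate 6. Ifi27 lies on chromosome 12, 0.869 Mb from the deleted Chga, so that it is linked to the knockout allele. Its log2 fold change in CgA-KO/PS19 against PS19 was 0.089 (95% interval -0.25 to 0.43).

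Isg15 and Usp18 act as a pair. Isg15 is a ubiquitin-like protein that is attached to other proteins after interferon, and Usp18 removes it and also blocks the interferon receptor. Isg15 was at 0.521, 0.323, 1.07, 0.570 and 0.531 CPM in WT. It was 0.467 to 0.809 CPM in PS19 (median 0.677) and 0.491 to 1.11 CPM in CgA-KO/PS19 (median 0.806), with all genotypes overlapping. For Isg15 the log2 fold change was 0.30 (95% interval -0.27 to 0.86) in CgA-KO/PS19 against PS19. Usp18 was at 0.665, 0.400, 0.511, 0 and 0.579 CPM in WT, with the 0 again in replicate 4. It was 0.310 to 0.545 CPM in PS19 (median 0.501) and 0.558 to 1.01 CPM in CgA-KO/PS19 (median 0.842). All 6 CgA-KO/PS19 libraries lay above the 6 PS19 libraries. The log2 fold change was 0.82 (SE 0.33), the largest of the 9 genes in that comparison, but the FDR was 0.113 by the edgeR test. DESeq2 (FDR 0.00999) and limma voom (FDR 0.0424) called it, as did edgeR without WT replicate 4 (0.81, FDR 0.0222) and among replicates 1 to 3 (1.08, FDR 0.0403). Among replicates 4 to 6 it was 0.59 (FDR 0.650). Of all genes tested in these smaller fits, 31.1% were called among replicates 1 to 3 and 0.806% among replicates 4 to 6. The 4 CgA-KO/PS19 libraries with over 10% mitochondrial counts, replicates 1, 2, 3 and 6, held Usp18 at 0.999, 0.558, 0.892 and 1.01 CPM, and the other 2 at 0.791 and 0.590 CPM. Usp18 overlaps Gm44148 on the opposite strand.

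Beyond these 9, a list of 115 other genes of the pathway was examined by role, of which 114 were in the table and 91 were tested. The ligands were at or near 0. Of 18 type I interferon genes, 14 had 0 counts in all 17 libraries, and the highest value of the other 4 was 0.0598 CPM, so that none was tested. A count of 0 allows up to 1.03 CPM in WT replicate 4. The receptors and their kinases were well measured, and 0 of 4 were called in each of the 3 comparisons by edgeR, DESeq2 and limma voom, with 0 at an unadjusted p under 0.05 in edgeR. Other settings did call some of them. Ifnar1 averaged 42.9 ± 5.49 CPM in the WT, 36.2 ± 5.89 CPM in the PS19 and 38.4 ± 7.15 CPM in the CgA-KO/PS19 libraries (SD over 5, 6 and 6 libraries). Ifnar2 averaged 14.7 ± 1.54, 13.0 ± 0.690 and 13.6 ± 2.81 CPM in the same order. The intervals of their log2 fold changes in CgA-KO/PS19 against PS19 were -0.20 to 0.37 for Ifnar1 and -0.19 to 0.31 for Ifnar2, and Jak1, at -0.44 to 0.048, and Tyk2, at -0.40 to 0.55, also included 0. Jak1 was 167 to 198 CPM in CgA-KO/PS19 replicates 1 to 3 and 241 to 271 CPM in replicates 4 to 6, against 232 to 276 CPM in PS19 and 219.9 to 257 CPM in WT. Among replicates 1 to 3 it was lower in CgA-KO/PS19 than in PS19 (log2 fold change -0.53, FDR 0.00495) and than in WT (-0.41, FDR 0.0197), and Tyk2 was higher than in PS19 (0.51, FDR 0.0127). With the microglia marker level as a covariate, Jak1 was also lower in both of these comparisons (-0.35, FDR 0.0184, and -0.38, FDR 0.0189). With the striatal marker level as a covariate, Jak1 (-0.57, FDR 0.0177) and Ifnar1 (-0.69, FDR 0.0457) were lower in PS19 than in WT, and Jak1 was lower in CgA-KO/PS19 than in WT (-0.52, FDR 0.00283).

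Among the 91 genes, 3 were called in PS19 against WT (3.3%), 8 in CgA-KO/PS19 against PS19 (8.79%) and 7 in CgA-KO/PS19 against WT (7.69%), shares near those of all genes. Leaving out 1 library in turn gave 1 (without WT replicate 3) to 4 calls (without WT replicate 1) in the first comparison, 3 (without PS19 replicate 6) to 16 (without WT replicate 4) in the second and 3 (without WT replicate 5) to 10 (without WT replicate 4) in the third. Of all genes, these fits called 5.35% and 6.23%, 5.88% and 15%, and 2.76% and 8.89%. The medians of the log2 fold change were 0.16, 0.16 and 0.30, and 69.2%, 68.1% and 79.1% of the genes were positive. The counts and their directions also moved with the replicates and the tissue markers. Among replicates 1 to 3 they were 0, 25 and 14, beside 0.592%, 31.1% and 20.7% of all genes tested there. Among replicates 4 to 6 they were 1, 0 and 4, beside 5.81%, 0.806% and 3.05% of all genes. With the striatal marker level as a covariate they were 11 (2 higher and 9 lower), 5 (4 higher and 1 lower) and 18 (12 higher and 6 lower), beside 13.8%, 3.18% and 20.6% of all genes.

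The 3 genes called in PS19 against WT were higher, Cmpk2, Ifit3b and Oas1c. Cmpk2 and Oas1c were no longer called with the striatal covariate, where most of the calls were lower. Cmpk2, a mitochondrial nucleotide kinase, was 20.9 to 25.8 CPM in WT and 27.6 to 32.9 CPM in PS19 without overlap (log2 fold change 0.40, SE 0.089, FDR 0.0126). Oas1c, of the oligoadenylate synthetase family, averaged 0.666 CPM in WT and 1.24 CPM in PS19 (0.87, SE 0.25, FDR 0.0488). In fits without 1 library, Oas1c was called only without WT replicate 1, PS19 replicate 1 or CgA-KO/PS19 replicate 3, 4, 5 or 6.

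Of the 8 genes called in CgA-KO/PS19 against PS19, 6 were higher and 2 lower. The lower genes were Cmpk2 and Stat2. Cmpk2 was 19.9 to 24.7 CPM in CgA-KO/PS19, below all PS19 libraries and overlapping with WT (log2 fold change -0.45, SE 0.084, FDR 0.00566). Stat2, the signal transducer specific to type I and type III interferons, was 10.7 to 12.7 CPM in CgA-KO/PS19 against 15.0 to 18.6 CPM in PS19 without overlap (-0.46, SE 0.12, FDR 0.0249). In WT, Stat2 was 9.81 CPM in replicate 4 and 13.5 to 16.9 CPM in the others, and its interval in CgA-KO/PS19 against WT was -0.57 to -0.035, with an FDR of 0.171. The higher genes included Slfn5, a Schlafen family member, at 5.35 to 8.59 CPM in PS19 and 8.27 to 13.9 CPM in CgA-KO/PS19 (0.72, SE 0.16, FDR 0.0120). In PS19 it was 5.35 to 5.48 CPM in replicates 1 to 3 and 7.52 to 8.59 CPM in replicates 4 to 6. In CgA-KO/PS19 it was 12.2 to 13.9 and 8.27 to 9.96 CPM. The ranges of the genotypes were thus apart in replicates 1 to 3, those with Ddx3y, and overlapped in replicates 4 to 6. Ptpn2, a phosphatase that restrains JAK-STAT signalling, averaged 16.2 CPM in PS19 and 22.8 CPM in CgA-KO/PS19 without overlap (0.49, SE 0.13, FDR 0.0240). Ifi203, of the DNA-binding Ifi200 family, averaged 0.342 CPM in PS19 and 1.02 CPM in CgA-KO/PS19 (1.55, SE 0.42, FDR 0.0295). The last 3, Mndal, Aim2 and Samd9l, are named because they complete the count, and were chosen after their values were seen.

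Of those 8 genes, 3 were neighbours. Aim2, Ifi203 and Mndal lie among 5 listed Ifi200 genes within 591.8 kb of chromosome 1 (GRCm38), and all were higher in the CgA-KO/PS19 group of that comparison. Mndal was 0.0384 to 0.364 CPM in PS19 and 0.329 to 1.99 CPM in CgA-KO/PS19, and had 0 counts in 3 of 5 WT libraries, so that a fold against WT is not given. The annotated spans of Mndal and Ifi203 overlap on the same strand, and their reads may not be told apart. Aim2, a sensor of cytosolic DNA, was 0.838 to 1.52 CPM in PS19 and 1.05 to 2.93 CPM in CgA-KO/PS19 (log2 fold change 0.80, SE 0.24, FDR 0.0429). None of these 3 neighbours was called without PS19 replicate 1, 2, 4 or 6, or without CgA-KO/PS19 replicate 1, 2 or 3. Aim2 was also lost without PS19 replicate 3 or 5, WT replicate 1 or 2, or CgA-KO/PS19 replicate 6. Mndal was also lost without PS19 replicate 5 or CgA-KO/PS19 replicate 6.

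The 7 genes called in CgA-KO/PS19 against WT were higher, while 6 of 18 calls with the striatal covariate, 2 of 16 with the microglia covariate, 2 of 14 among replicates 1 to 3 and 1 of 10 without WT replicate 4 were lower. Beside Ifit3b, Mndal and Slfn5 (log2 fold change 0.73, SE 0.17, FDR 0.0175), they were Ifitm2, Eif2ak2, Slfn2 and Ifih1. Ifitm2, which restricts virus entry, averaged 3.82 CPM in WT and 6.86 CPM in CgA-KO/PS19 (0.81, SE 0.20, FDR 0.0230). Eif2ak2, the kinase PKR that halts translation upon double-stranded RNA, averaged 5.95 and 8.86 CPM (0.60, SE 0.17, FDR 0.0425). In fits without 1 library, Eif2ak2 was called only without WT replicate 4 or CgA-KO/PS19 replicate 4 or 5. It was not called with only the 2 genotypes fitted. In WT replicate 4, Eif2ak2 was 8.90 CPM, the only WT library in the range of CgA-KO/PS19. By role, 6 of the 7 were among the other induced genes, which make up 54 of the 91 tested (11.1% of them called, beside 6.46% of all genes), with a median log2 fold change of 0.42 and 49 of 54 positive. The seventh was Ifih1 of the sensors, and none was a receptor, a transcription factor, a negative regulator or an enzyme of Isg15 conjugation.

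**Figure D4:**
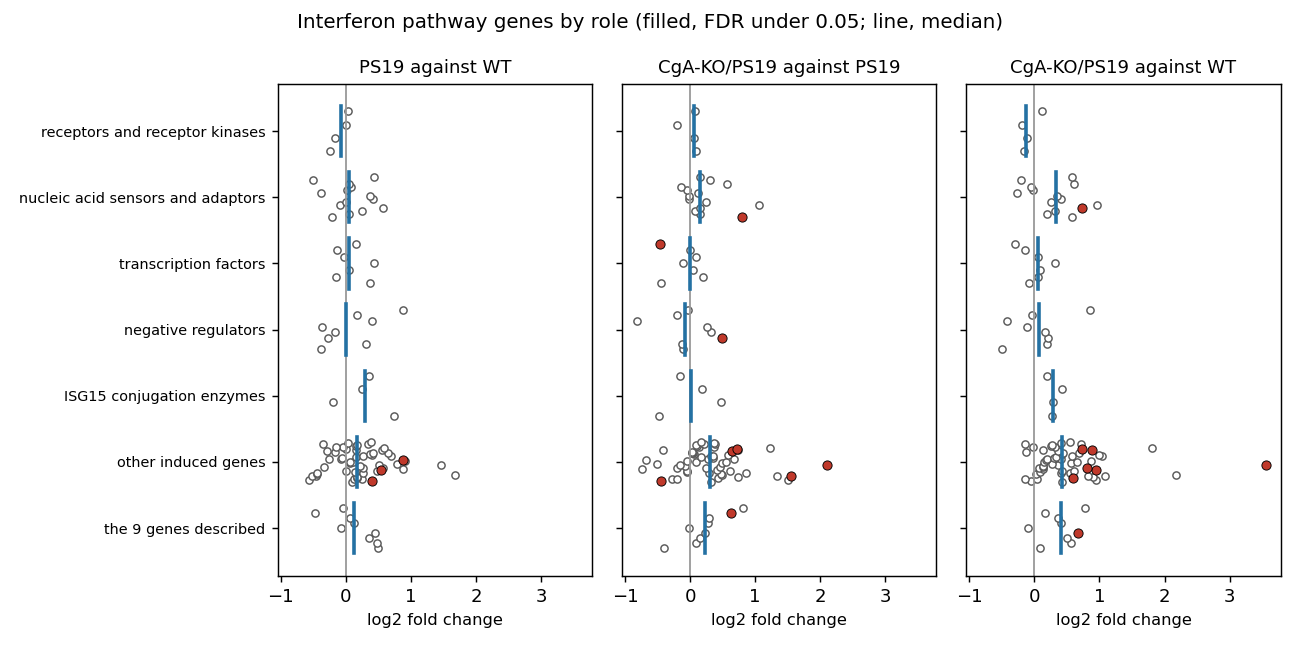
Log2 fold change of each tested interferon pathway gene by role, in each of the 3 comparisons, with filled points for an FDR under 0.05 in the edgeR test and a line at the median of each role. The other induced genes, 54 of the 91 tested, have 5.56%, 9.26% and 11.1% filled points in the 3 comparisons, beside 5.9%, 9.72% and 6.46% of all genes, and their median is 0.17 in PS19 against WT, 0.31 in CgA-KO/PS19 against PS19 and 0.42 in CgA-KO/PS19 against WT.

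Cell type markers were measured beside these genes. The 9 microglia markers, all present in each genotype, summed to 229 to 245 CPM in WT, 206 to 261 CPM in PS19 and 153 to 241 CPM in CgA-KO/PS19, lowest in CgA-KO/PS19 replicate 6, the library with the highest Ifit3 and Oasl2. Of these markers, 0 of 9 were called in either comparison with PS19 by the edgeR test, the only one run on the markers, with an unadjusted p under 0.05 for 1 in PS19 against WT and 4 in CgA-KO/PS19 against PS19. In CgA-KO/PS19 against WT, 1 of 9 (11.1%) was called, higher, beside 6.46% of all genes. Of the 9 microglia markers, 6 had a negative log2 fold change there, and the median was -0.10. The 10 markers of infiltrating leukocytes summed to 12.8 to 41.9 CPM in WT, 4.91 to 7.20 CPM in PS19 and 3.98 to 27.4 CPM in CgA-KO/PS19, where Cd8a and Nkg7 were at 0 in all libraries. Endothelial markers summed to 152 to 237 CPM over all libraries. Astrocyte markers summed to 948 to 1208 CPM in WT, 1094 to 1416 CPM in PS19 and 1040 to 2248 CPM in CgA-KO/PS19. Oligodendrocyte markers summed to 1094 to 1796 CPM in WT, 1223 to 1761 CPM in PS19 and 1507 to 2943 CPM in CgA-KO/PS19. In CgA-KO/PS19 against PS19, 2 of 6 neuron markers (33.3%) were called, both lower, and 5 of 6 had a negative log2 fold change. There, 2 of 6 astrocyte markers (33.3%) and 1 of 6 oligodendrocyte markers (16.7%) were called, all higher. Of all genes, 9.72% were called in that comparison (5.5% higher and 4.22% lower). Blood markers summed to 105 to 303 CPM in WT, 224 to 690 CPM in PS19 and 117 to 298 CPM in CgA-KO/PS19, and all 5 had a positive log2 fold change in PS19 against WT, where 0 were called and 4 had an unadjusted p under 0.05. Choroid plexus markers summed to 1071 CPM in WT replicate 5, the WT library lowest in Ifit3, against a median of 14.5 CPM in WT, and without that library the Ifit3 log2 fold change in CgA-KO/PS19 against WT was 0.60. Whether these cells took part in the differences was not tested, and in bulk tissue fewer cells of a type and less RNA per cell cannot be told apart.

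Within genotypes the 9 genes did not vary as 1 block. After each genotype's mean was removed, Pearson's r over the 17 libraries, which share depth and dissection, was highest for Bst2 with Ifi27, at 0.83, and fell to 0.61 without WT replicate 4. It was lowest for Bst2 with Ifit3, at -0.38. The 8 other genes most like the mean of the 9, ranked by the same measure, were Hs3st3b1, Trmt9b, Emilin1, Dll4, Gm44243, Eps8l2, Ccr9 and Gas1, with r of 0.887 to 0.947. Without WT replicate 4 their r was 0.747 to 0.887, and without that library and WT replicate 3 it was 0.466 to 0.754. None of the 8 was on the list of interferon pathway genes.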

How the data were processed

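Gene expression was measured by mRNA sequencing of prefrontal cortex from 5 WT, 6 PS19 and 6 CgA-KO/PS19 mice (KAPA mRNA HyperPrep libraries, paired-end reads). The authors deposited a table of raw counts per gene for the whole series. Per the submitters' processing notes, reads were trimmed with Trimmomatic 0.39, aligned to mm10 with STAR 2.7.10b and quantified with StringTie 1.3.6, and the paper names prepDE as the step that made the counts. The annotation release and the strand setting are not given in the sources used here. prepDE derives counts from coverage, and about 3 deposited counts stood for 1 fragment, so counting noise is understated at low counts.

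The tests used edgeR 4.0.16 (R 4.3.3) on the unchanged counts: TMM library sizes, filterByExpr by genotype, and a quasi-likelihood fit over all 17 libraries with 1 mean per genotype, and p-values were adjusted by Benjamini-Hochberg across all 23062 tested genes (common biological coefficient of variation 0.316). Positions come from GENCODE M21 (GRCm38) and promoters from RefSeq (GRCm38.p6). The 9 genes, the pathway list and the marker lists were chosen with earlier results of these data known. Of 115 pathway genes, 114 were in the table, 3 of them under newer symbols. Named pathway genes were the called genes with the smallest p, at most 5 per comparison, and the receptors and ligands, and other names were chosen after their values were seen. Same-numbered libraries did not deviate together (r -0.275 to 0.464 over 16 pairs, 2 of them above 0.1), so the replicate number was not a term. Replicates 1 to 3 alone, replicates 4 to 6 alone and the striatal marker level as a covariate were alternatives chosen after the data were seen. On counts simulated for PS19 against WT with 200 genes changed by a log2 fold change of 2, edgeR recovered 188 with 4 false calls among 22967 genes, DESeq2 1.42.0 recovered 186 with 27 among 39131, and limma 3.58.1 voom 189 with 8 among 22967. Those changes were larger than any of the 9 genes showed. The simulation gave all genes the same biological variation and did not copy the 3 counts per fragment or the near-identical libraries. It therefore does not give the recovery or false calls for these data. A few listed genes are not reported here. Figures were made with matplotlib 3.10.9.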

Additional observations from a re-analysis of the deposited data

Results flagged for a closer look

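Of 69 groups of 4 to 10 libraries examined over 23 genes, 8 had 1 library far from the others by Dixon's test, where chance gives about 1 in 20. Among the 9 genes, Ifit3 was at 5.81 CPM in PS19 replicate 1, below the other PS19 libraries, Oasl2 was at 1.76 CPM in WT replicate 1, below the other WT libraries, and Bst2 was at 0 CPM in WT replicate 4, the shallowest library. Among the pathway genes, Ifnar2 was at 19.0 CPM in CgA-KO/PS19 replicate 6, the highest of its genotype, and Mndal was at 1.99 CPM in the same library. Jak1 was at 219.9 CPM in WT replicate 3 and Tyk2 at 3.19 CPM in WT replicate 4, each the lowest of WT. Ptpn2 was at 18.0 CPM in PS19 replicate 3, the highest of PS19.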

How the results depend on the processing

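The number of the 9 genes called depended on the tool and on single libraries. Between PS19 and WT it was 0 of 9, but 2 with DESeq2 and with limma voom and 1 with the microglia marker level as a covariate, and 0 to 1 without each library in turn. Between CgA-KO/PS19 and PS19 it was 1, but 2 with DESeq2, with only the 2 genotypes compared in the fit and with counts divided by 3. It was 0 there without a filter on low counts, with averaging of the near-identical libraries (PS19 replicates 4, 5 and 6, and replicates 1 and 3 of CgA-KO/PS19), with Ddx3y, microglia or striatal marker levels as a covariate and among replicates 4 to 6, and 0 to 2 without each library in turn. For CgA-KO/PS19 and WT it was 1, but 2 with DESeq2, DESeq2's size factors, at least 10 counts in every library (which left 5 of the 9 genes), limma voom, counts divided by 3, microglia or striatal marker levels as a covariate, and a log2 fold change beyond 0.5 with p under 0.01. It was 0 with only the 2 genotypes and among replicates 4 to 6, and 1 to 2 without each library. For CgA-KO/PS19 and WT, the share of all genes called was 6.62% with DESeq2's size factors and 9.36% with at least 10 counts. There it was 10.7% with limma voom and 9.17% with counts divided by 3. With Ddx3y as a covariate it was 9.54% between CgA-KO/PS19 and PS19. No share was computed for the threshold of 0.5 and p under 0.01. Shares of the other settings are given with the pathway genes below, and those without 1 library only in part.

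The other 91 pathway genes moved likewise. In PS19 against WT, where 3 were called, the count was 6 with DESeq2, 1 without a filter, 6 with only the 2 genotypes, 12 with limma voom, 0 with averaged libraries, 5 with the microglia covariate, 11 with the striatal covariate (9 of them lower), 0 among replicates 1 to 3, 1 among replicates 4 to 6 and 1 to 4 without each library. The share of all genes called moved too. With DESeq2 the share is of 39993 genes with any count, including any that its own filter left without an FDR. It was 5.99% with DESeq2, 2.64% without a filter, 10.5% with only the 2 genotypes and 17.2% with limma voom. With averaged libraries it was 1.9%, and with the microglia and striatal covariates 9.37% and 13.8%. Among replicates 1 to 3 it was 0.592%, and among replicates 4 to 6 it was 5.81%. In CgA-KO/PS19 against PS19, where 8 were called, the count was 17 with DESeq2, 3 without a filter, 14 with only the 2 genotypes, 21 with limma voom, 13 with counts divided by 3, 1 with averaged libraries, 16 with the microglia covariate, 5 with the striatal covariate, 25 among replicates 1 to 3, 0 among replicates 4 to 6 and 3 to 16 without each library. Of all genes, the first 5 of these settings called 9.9%, 3.92%, 13.1%, 22.7% and 15.3%. Averaged libraries gave 0.75%, and the microglia and striatal covariates gave 20% and 3.18%. Replicates 1 to 3 gave 31.1%, and replicates 4 to 6 gave 0.806%. In CgA-KO/PS19 against WT, where 7 were called, the count was 12 with DESeq2, 4 without a filter, 2 with only the 2 genotypes, 4 with averaged libraries, 16 with the microglia covariate, 18 with the striatal covariate (6 of them lower), 14 among replicates 1 to 3, 4 among replicates 4 to 6, 11 at the threshold of 0.5 and p under 0.01, and 3 to 10 without each library. The share of all genes here was 6.56% with DESeq2, 2.54% without a filter and 1.3% with only the 2 genotypes. Averaged libraries gave 2.58%, and the microglia and striatal covariates gave 16.6% and 20.6%. Replicates 1 to 3 gave 20.7%, and replicates 4 to 6 gave 3.05%. No share was computed for the threshold of 0.5 and p under 0.01.

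Numbers shared between genotypes did not pair the libraries, as 2 of 17 correlated best with their own number. With the replicate block, 0, 0 and 1 of the 9 genes and 1, 1 and 2 of the pathway genes were called in the same order of comparisons. Of all genes, 2.86%, 2.84% and 2.66% were called there.

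Directions turned where the difference was near 0. In PS19 against WT, Irf7 was 0.082 with limma voom and 0.60 among replicates 4 to 6, Irf9 was -0.13 among replicates 1 to 3, Isg15 was -0.012 with counts divided by 3 and -0.0054 among replicates 1 to 3, and Usp18 was 0.33 with the striatal covariate and 0.39 among replicates 4 to 6. In CgA-KO/PS19 against PS19, Irf7 was 0.010 with DESeq2's size factors, 0.019 with counts divided by 3, 0.073 with averaged libraries, 0.21 with the striatal covariate and 0.11 among replicates 1 to 3, and Ifi27 was -0.00023 with the striatal covariate. In CgA-KO/PS19 against WT, Irf7 was 0.00995 with limma voom and 0.46 among replicates 4 to 6, Oasl2 was -0.041 with the microglia covariate, and Bst2 was -0.037 with limma voom and -0.00038 among replicates 1 to 3. Without each library in turn, PS19 against WT ranged from -0.28 to 0.085 for Irf7, -0.068 to 0.36 for Irf9, -0.10 to 0.44 for Isg15 and -0.23 to 0.091 for Usp18, CgA-KO/PS19 against PS19 from -0.075 to 0.079 for Irf7, and CgA-KO/PS19 against WT from -0.29 to 0.064 for Irf7 and -0.12 to 0.24 for Bst2. The cause of these changes was not tested. Depth limits Usp18, Isg15, Irf7 and Bst2, which had 0, 5, 8 and 0 counts in WT replicate 4.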

Other observations

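Among the other pathway genes that were tested and had a RefSeq promoter, those with the letters GAAANNGAAA were set beside those without. In PS19 against WT, the 29 genes with a match had a median log2 fold change of 0.27, with 25 positive and 2 called, and the 46 genes without one had 0.062, with 30 positive and 1 called. The medians in CgA-KO/PS19 against PS19 were 0.21 and 0.12, with 4 and 3 genes called. In CgA-KO/PS19 against WT they were 0.42 and 0.25, with 6 and 1 genes called, and 25 of 29 against 35 of 46 positive. The comparisons share libraries, and no test of the difference between the sets was made. By role, the share of promoters with a match was highest for the ligands, at 64.7% of 17, followed by 54.3% of 46 other induced genes. It was 33.3% of 6 transcription factors, 27.3% of 11 sensors and adaptors and 14.3% of 7 negative regulators. No match was held by the 4 receptors and receptor kinases or the 4 enzymes of Isg15 conjugation.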
